A study of Mus musculus with 8 samples.

Results

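The genes described here are 10 mouse stress genes: 7 that p53 is known to activate or that were found through it (Mdm2, Ccng1, Sesn1, Sesn2, Aen, Ei24 and Trp53inp1) and the 3 Gadd45 genes (Gadd45a, Gadd45b and Gadd45g). They were chosen by name, and all their probes were found through the RefSeq accession printed with each probe, which gave 12 probes of 28026 named ones and 10 genes of 15182 that were tested. All 8 arrays of the series were used, 1 for each sample of mouse embryonic stem (ES) cells, the self-renewing cells of the early embryo. Every line lacked H-Ras and N-Ras (H-Ras-/-; N-Ras-/-) and carried K-Ras lox/lox, the only RAS gene left, which recombination can remove, and RERT ert/ert, which supplies a recombinase that OHT (4-hydroxytamoxifen) switches on. The 4 groups of 2 arrays were ERF-KO cells with OHT, ERF-KO cells untreated, ERF-WT cells with OHT and ERF-WT cells untreated. ERF, a repressor from the ETS group of DNA-binding proteins, is held outside the nucleus while ERK signalling runs, and the comparison asks what RAS loss does with and without it. OHT was given for at least 2 days, on gelatin in medium with serum and the cytokine LIF. No group combined OHT with intact RAS, so the drug itself and the loss of RAS cannot be told apart.

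Each sample mixed 2 clones, and the same mixture was sampled with and without OHT. Pools A2 and B2 make up ERF-KO and pools A1 and B1 make up ERF-WT, and the labels call the pools of a group biological replicates. Erf itself read 3.91 and 3.45 log2 units in pool A2 (OHT, untreated) and 5.31 and 5.64 in pool B2, against 4.92 to 5.43 in the wild type pools. Pool B2 therefore lay at the wild type level, and ERF-KO is called the labelled knockout throughout. All levels are log2 signals relative to the 75th percentile of the same array. Between 54.0 and 63.6% of the probes of an array were well above background, and no spot was saturated. All 8 ES cell markers (such as Pou5f1, Nanog and Zfp42) exceeded the 75th percentile on every array, while none of the 6 primitive endoderm markers did on any. Slide 1 held 6 arrays and slide 2 held both arrays of pool B1, so that slide and pool B1 cannot be told apart. In RNA from a whole culture, a lower level can come from fewer cells with the transcript or from less of it per cell, and the 2 cannot be told apart here.

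The transcription factor p53 is stabilised when DNA damage or other stress weakens its degradation by Mdm2, and it binds pairs of short palindromic half-sites near its target genes. Its targets halt the cell cycle, drive repair or cell death, and include Mdm2 itself, which closes a negative feedback loop. Sestrins restrain the growth kinase mTORC1, and Gadd45 proteins bind cell cycle and repair proteins and activate the kinase MAP3K4 upstream of p38 and JNK. Gadd45a is a classical p53 target, whereas Gadd45b and Gadd45g are better known as genes induced by cytokines and growth factors. In ES cells p53 also takes part in the exit from self-renewal, for example by repressing Nanog.

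Promoter windows of RefSeq (GRCm38.p6), running from 250 bases before to 50 after a start site, covered 9 of the 10 genes in 11 windows, and Trp53inp1 had none. The windows below were chosen because the first 3 belong to p53-linked genes that moved together between the cell pools, and the last 2 to the Gadd45 gene that was furthest from the other arrays in pool A2 (Gadd45g) and the one with the largest mean change after OHT over the 4 pools (Gadd45b). Capitals mark the only match to the p53 half-site consensus, a 10-base pattern that reads the same on both strands.
Mdm2 (chr10:117710709-117711008, minus strand): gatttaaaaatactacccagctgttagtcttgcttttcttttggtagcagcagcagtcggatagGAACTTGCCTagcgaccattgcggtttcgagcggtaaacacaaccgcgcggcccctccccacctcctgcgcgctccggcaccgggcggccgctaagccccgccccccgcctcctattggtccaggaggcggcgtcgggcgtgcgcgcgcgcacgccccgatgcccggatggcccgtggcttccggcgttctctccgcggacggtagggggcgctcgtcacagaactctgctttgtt
Ccng1 (chr11:40755237-40755536, minus strand): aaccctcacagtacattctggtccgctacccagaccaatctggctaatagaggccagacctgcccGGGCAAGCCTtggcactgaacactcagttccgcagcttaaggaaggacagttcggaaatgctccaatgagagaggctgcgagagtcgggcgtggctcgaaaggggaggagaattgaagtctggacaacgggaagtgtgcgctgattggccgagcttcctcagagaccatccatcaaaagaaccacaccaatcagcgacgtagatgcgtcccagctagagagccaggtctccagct
Aen (chr7:78895808-78896107, plus strand): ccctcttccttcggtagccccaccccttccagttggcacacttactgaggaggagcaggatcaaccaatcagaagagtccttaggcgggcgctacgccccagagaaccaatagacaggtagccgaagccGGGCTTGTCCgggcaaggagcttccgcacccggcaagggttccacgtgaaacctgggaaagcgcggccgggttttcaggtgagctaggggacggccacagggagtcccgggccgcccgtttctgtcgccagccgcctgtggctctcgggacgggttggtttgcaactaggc
Gadd45g (chr13:51846425-51846724, plus strand): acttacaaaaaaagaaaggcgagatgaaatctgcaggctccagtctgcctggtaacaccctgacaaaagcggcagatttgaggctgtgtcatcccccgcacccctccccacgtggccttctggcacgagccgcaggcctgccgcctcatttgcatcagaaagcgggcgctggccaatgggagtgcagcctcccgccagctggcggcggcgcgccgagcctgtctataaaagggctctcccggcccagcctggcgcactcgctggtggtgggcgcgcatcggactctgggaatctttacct
Gadd45b (chr10:80929841-80930140, plus strand): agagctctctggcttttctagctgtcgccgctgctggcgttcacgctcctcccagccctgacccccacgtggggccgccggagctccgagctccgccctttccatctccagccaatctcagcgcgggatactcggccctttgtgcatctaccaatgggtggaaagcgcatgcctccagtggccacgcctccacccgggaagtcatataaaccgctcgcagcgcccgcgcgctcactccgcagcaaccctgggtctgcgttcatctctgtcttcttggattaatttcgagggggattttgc
The half-site began 186 bases before the start in Mdm2, 185 before it in Ccng1 and 121 before it in Aen, whose other, overlapping window holds the same match. Gadd45a had GGGCTAGCCC beginning 40 bases before the start, Ei24 had GGGCATGCCC beginning 10 before it, and 1 of the 2 windows of Sesn1 had AAGCTTGTTT beginning 173 before it. The windows of Sesn2, Gadd45b and Gadd45g held no match. In all, 7 of the 11 member windows (63.6%) and 6 of the 9 genes held a match, against 8.36% of all 32851 windows. The 7 windows count the match of Aen in both of its windows. Most members were chosen by name for a known link to p53, so the comparison is a description and no test. A match describes letters and not a bound site, and windows without one say nothing about p53.

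In the feedback pair, the level differed more between cell pools than with the genotype label or OHT. Pool A2, which stood apart, was also the pool with low Erf, and the part of Erf was not tested. Mdm2, the ubiquitin ligase that degrades p53, read 7.08 (pool A2) and 5.80 (pool B2) in the labelled knockout with OHT and 6.84 and 5.94 untreated, against 6.24 (pool A1) and 5.84 (pool B1) in the wild type with OHT and 5.92 and 5.83 untreated. Both A2 arrays lay above the other 6, which covered 5.80 to 6.24, so the labelled knockout groups overlapped the wild type ones. Ccng1 encodes cyclin G1, which brings the phosphatase PP2A to Mdm2. It read 4.61 (A2) and 2.996 (B2) in the labelled knockout with OHT and 4.14 and 3.03 untreated, against 3.32 (A1) and 3.04 (B1) in the wild type with OHT and 3.41 and 2.98 untreated. Again both A2 arrays stood above all others, and pool B2 lay within the range of the wild type pools. The change after OHT in single pools was 0.24 for Mdm2 and 0.47 for Ccng1 in A2, -0.14 and -0.03 in B2, 0.32 and -0.09 in A1 and 0.01 and 0.05 in B1. Its sign therefore varied over the pools for both genes.

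**Figure D1:**
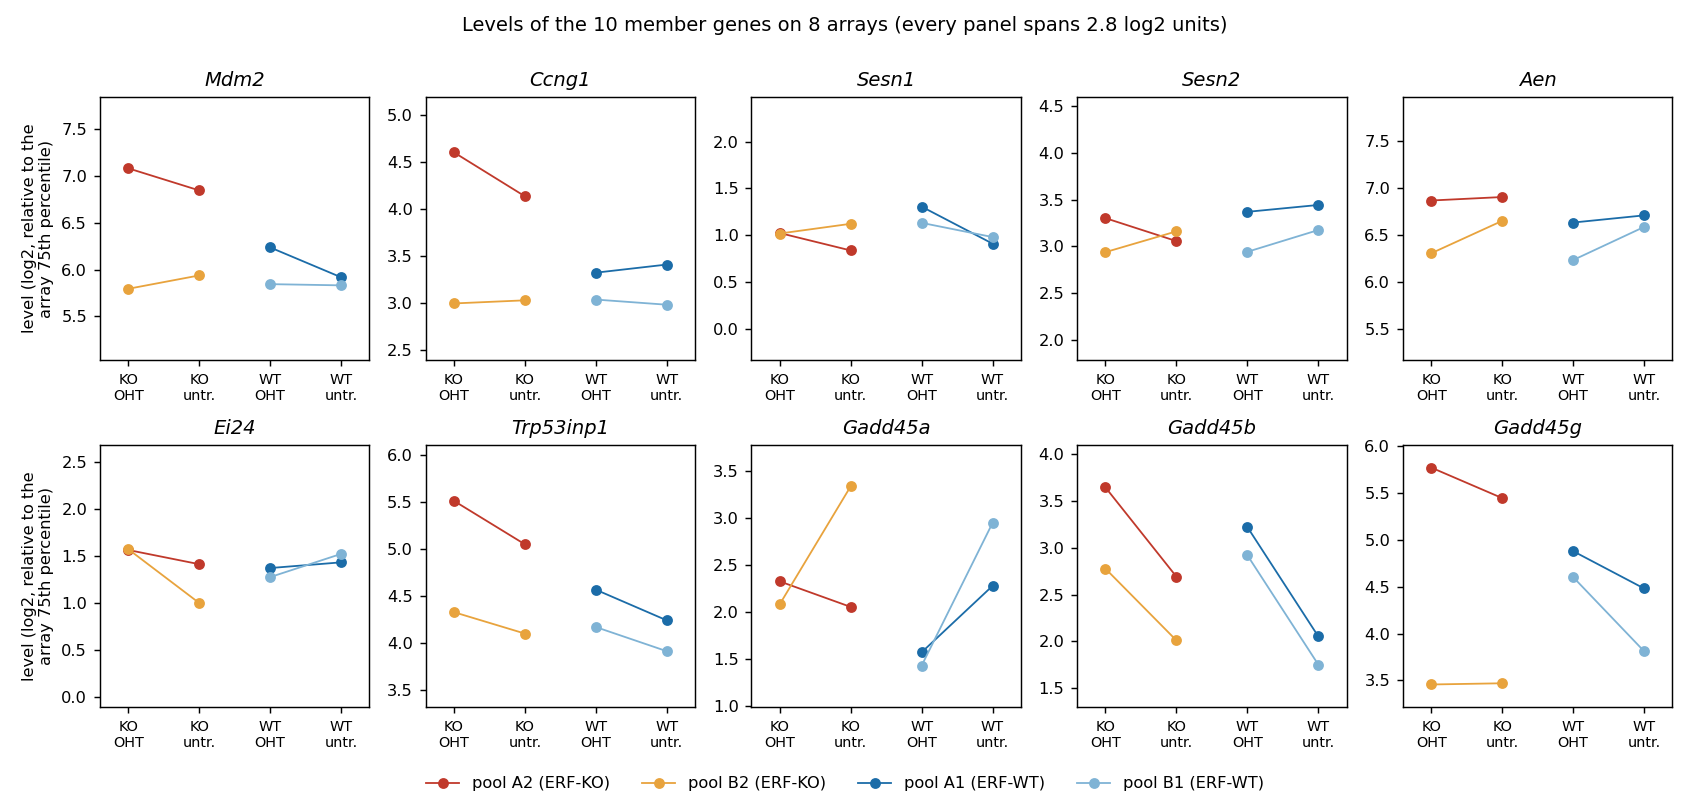
Levels of the 10 genes (y axis, log2 signal relative to the array's 75th percentile; each panel spans the same distance) on 8 arrays, grouped on the x axis as labelled knockout (KO) and wild type (WT), with OHT or untreated. Points are arrays and lines join the arrays of 1 cell pool. The A2 points stand above the rest for Mdm2, Ccng1, Aen, Trp53inp1 and Gadd45g, and Gadd45b is higher with OHT in every pool.

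The sestrins, inhibitors of mTORC1 signalling, varied little. Sesn1 read 1.03 (A2) and 1.02 (B2) in the labelled knockout with OHT and 0.84 and 1.12 untreated, against 1.31 (A1) and 1.13 (B1) in the wild type with OHT and 0.91 and 0.98 untreated. Its wild type arrays with OHT lay above all the other Sesn1 arrays, the nearest of which, untreated B2, came close to them. How many of all genes show this order was not counted. Sesn2, also a sensor of leucine and a target of ATF4, read 3.30 (A2) and 2.94 (B2) in the labelled knockout with OHT and 3.06 and 3.16 untreated, against 3.37 (A1) and 2.94 (B1) in the wild type with OHT and 3.44 and 3.18 untreated. Here the groups overlapped, and OHT arrays were lower than their untreated partners in 3 of 4 pools, the exception being A2.

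Of the genes linked to cell death and survival, Trp53inp1 stood highest in pool A2. Trp53inp1, a stress protein that promotes p53 phosphorylation and autophagy, read 5.52 (A2) and 4.33 (B2) in the labelled knockout with OHT and 5.05 and 4.10 untreated, against 4.57 (A1) and 4.17 (B1) in the wild type with OHT and 4.24 and 3.91 untreated. The groups overlapped, but each OHT array lay above its untreated partner, by 0.46 in A2, 0.23 in B2, 0.33 in A1 and 0.26 in B1. Its second, dimmer probe was higher with OHT in all 4 pools too, with 1.84 (A2) and 0.90 (B2) against 1.33 and 0.61 in the labelled knockout and 1.01 (A1) and 0.42 (B1) against 0.65 and 0.33 in the wild type.

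Aen is a nuclease that p53 induces during apoptosis. It read 6.87 (A2) and 6.31 (B2) in the labelled knockout with OHT and 6.91 and 6.65 untreated, against 6.64 (A1) and 6.24 (B1) in the wild type with OHT and 6.71 and 6.59 untreated. It was the only member lower with OHT in all 4 pools, by 0.04 and 0.08 on the log2 scale in A2 and A1 and by 0.35 in B2 and in B1, and its second probe had the same order of arrays within each pool. Ei24, an endoplasmic reticulum protein first found as induced by etoposide and needed for autophagy, read 1.57 (A2) and 1.58 (B2) in the labelled knockout with OHT and 1.42 and 1.00 untreated, against 1.38 (A1) and 1.28 (B1) in the wild type with OHT and 1.44 and 1.53 untreated. OHT arrays were higher than their partners in both labelled knockout pools and lower in both wild type pools, an opposition that 7.41% of all genes showed in one sense or the other. The OHT and untreated arrays of Ei24 also did not overlap within either genotype. How many of all genes show that was not counted, so it only describes the arrays.

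The 3 Gadd45 genes differed most from each other. Gadd45b, an activator of MAP3K4 that opposes JNK-driven death in several cell types, read 3.64 (A2) and 2.78 (B2) in the labelled knockout with OHT and 2.69 and 2.01 untreated, against 3.22 (A1) and 2.92 (B1) in the wild type with OHT and 2.05 and 1.75 untreated. All 4 OHT arrays lay above all 4 untreated arrays, and Gadd45b was the only member for which this held, against 4.12% of all genes in that direction and 4.62% in the other. The lowest OHT array, at 2.78, came from pool B2, and the highest untreated array, at 2.69, from pool A2.

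Gadd45a, the p53 target that binds PCNA and promotes DNA repair and demethylation, read 2.33 (A2) and 2.08 (B2) in the labelled knockout with OHT and 2.05 and 3.34 untreated, against 1.57 (A1) and 1.43 (B1) in the wild type with OHT and 2.28 and 2.95 untreated. OHT arrays were lower by 1.26 in pool B2, by 0.71 in A1 and by 1.52 in B1 on the log2 scale, and in pool A2 the OHT array was the higher by 0.27. The 2 wild type groups did not overlap, while the labelled knockout groups did. The share of all genes that do not overlap within 1 genotype was not counted, so this only describes the arrays. Gadd45g, a tumour suppressor and developmental regulator, read 5.77 (A2) and 3.46 (B2) in the labelled knockout with OHT and 5.44 and 3.47 untreated, against 4.88 (A1) and 4.60 (B1) in the wild type with OHT and 4.48 and 3.81 untreated. Both arrays of A2 lay above the other 6 and both arrays of B2 lay below all others. The 2 pools that share the knockout label thus formed the ends of the range. The A2 arrays exceeded the B2 arrays by 2.31 with OHT and by 1.97 untreated.

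**Figure D2:**
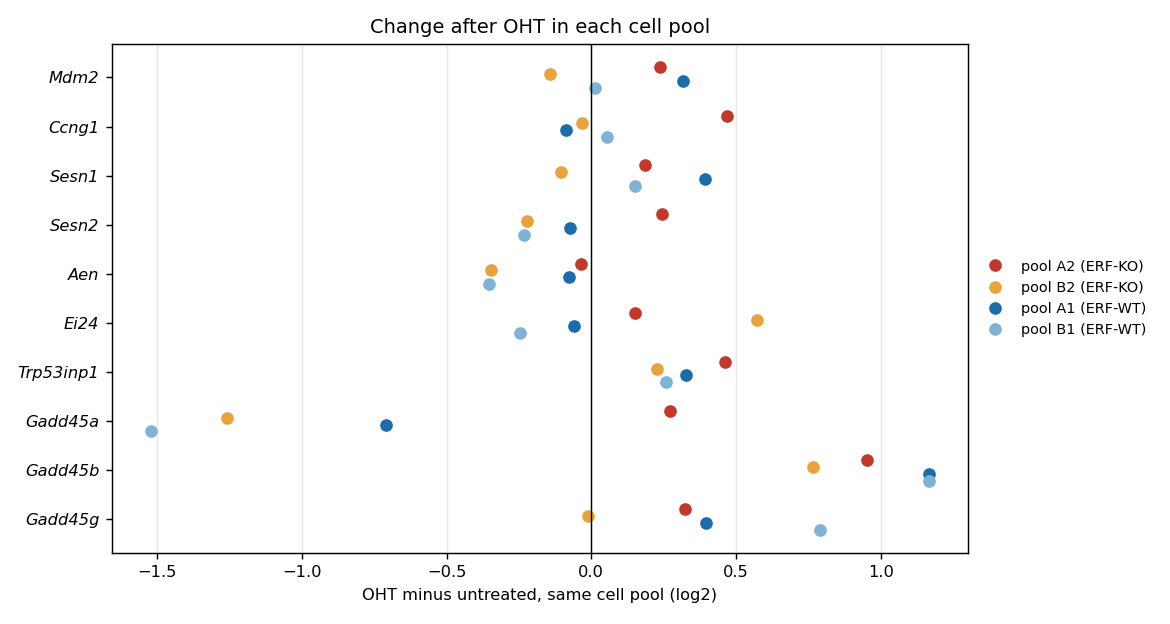
OHT minus untreated within each cell pool (x axis, log2) for the 10 genes (y axis), with pools in colour. Gadd45b lies between 0.76 and 1.17 in the 4 pools and Trp53inp1 between 0.23 and 0.46, whereas Gadd45a lies below -0.7 in 3 pools and at 0.27 in A2.

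For OHT against untreated in the mean of both genotypes, limma on the 4 group means, with Benjamini-Hochberg adjustment over 15182 genes, called 0 of the 10 members at an adjusted p under 0.05, against 0.0659% of all genes. At an unadjusted p under 0.05 it took in 1 member, Gadd45b, against 9.21% of all genes. In the labelled knockout alone 0 members reached that unadjusted p (3.83% of all genes), and in the wild type alone 1 did, again Gadd45b (5.91%). Gadd45b was higher with OHT by 1.01 ± 0.27 (SE, 4 arrays against 4; limma adjusted p = 0.331), with 0.86 ± 0.38 in labelled knockout pools (limma adjusted p = 1.00) and 1.17 ± 0.38 in wild type pools (limma adjusted p = 0.698). Since each pool was sampled with and without OHT, limma with the pool as a block was also fitted, and there Gadd45b passed in the mean of both genotypes (1.01 ± 0.06, adjusted p = 0.0472), as 0.784% of all genes did. Gadd45b thus rose with OHT in that fit. No other member passed it, and in the single genotypes it called 0.0% of all genes.

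The blocked fit with a variance that follows the signal, robust to odd genes and without spots in dark patches of the chip called 3 members, all higher: Gadd45b, Trp53inp1 (0.32 ± 0.06, limma adjusted p = 0.00646) and Gadd45g (0.37 ± 0.08, limma adjusted p = 0.0154). It called 28.7% of the 14248 genes it tested, 12.9% of the genes higher and 15.7% lower, so 3 of 10 is near the background over both directions and above it among higher calls, without a test of that difference. In the wild type it called the same 3 members (17.0% of all genes, 7.24% higher and 9.76% lower), with 1.17 ± 0.09 for Gadd45b (limma adjusted p = 3.76e-04). In the labelled knockout it called Gadd45b (0.86 ± 0.09, limma adjusted p = 0.00340) and Trp53inp1 (10.1% of all genes, 5.2% higher and 4.86% lower). Without pool A2 the mean over genotypes gained Gadd45a (-1.19 ± 0.17, limma adjusted p = 0.00997) and Aen (-0.28 ± 0.07, limma adjusted p = 0.0289), both lower with OHT, and lost Gadd45g (0.29 ± 0.09, limma adjusted p = 0.0568). Without pool B2 it gained Ccng1 (0.23, limma adjusted p = 0.0455), higher with OHT, and without B1 it lost Gadd45g (0.28 ± 0.09, limma adjusted p = 0.0864). Gadd45b and Trp53inp1 passed in that comparison with any 1 pool left out. In the wild type alone, Trp53inp1 no longer passed without A1 (limma adjusted p = 0.353) or without B1 (0.251), nor did Gadd45g without B1 (0.210). Over all 24 alternatives of the mean OHT comparison Gadd45b passed in 6 (limma adjusted p from 1.15e-04 to 1.00), Trp53inp1 in 5 (0.00646 to 1.00) and Gadd45g in 3 (0.0130 to 1.00).

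In all, 2 members, Trp53inp1 and Gadd45b, were higher with OHT in 4 of 4 pools, against 21.0% of all genes, and 1, Aen, was lower in 4 of 4, against 24.0%. These shares lie near the background. The median difference over the members was 0.11 in the mean of both genotypes, against -0.02 over all genes.

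The OHT effects of the 2 genotypes were compared directly. With limma on the group means 0 members passed, against 0.0% of all genes, and 0 did so at an unadjusted p under 0.05, against 1.28%. The largest member difference, labelled knockout minus wild type, was 0.62 ± 0.65 for Gadd45a (limma adjusted p = 1.00), followed by 0.52 ± 0.28 for Ei24 (limma adjusted p = 1.00). With the pool as a block 0 members passed either. An OHT effect that differs between the genotypes was not detected for any member with 2 pools each.

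Between genotypes, untreated, 8 of 10 members had the higher mean in the labelled knockout, and with OHT 7 of 10 had. None passed in limma, against 0.0% of all genes in both comparisons, and 0 had an unadjusted p under 0.05, against 1.35% untreated and 2.17% with OHT. Mdm2 averaged 6.39 ± 0.64 in the labelled knockout and 5.88 ± 0.06 in the wild type (SD, n = 2 each, untreated), and with OHT 6.44 ± 0.91 and 6.04 ± 0.28. The difference was 0.52 ± 0.50 untreated and 0.40 ± 0.50 with OHT (SE; limma adjusted p = 1.00 for both). For Ccng1 it was 0.39 ± 0.61 and 0.62 ± 0.61, and for Trp53inp1 0.50 ± 0.50 and 0.55 ± 0.50, each with a limma adjusted p of 1.00. Pool A2 alone read 6.84 untreated and 7.08 with OHT for Mdm2, against wild type means of 5.88 and 6.04. For Ccng1 it read 4.14 and 4.61 against 3.20 and 3.18, and for Trp53inp1 5.05 and 5.52 against 4.08 and 4.37. Without pool A2, pool B2 alone was compared with the wild type. There Mdm2 differed by 0.06 ± 0.26 untreated and by -0.25 ± 0.26 with OHT. Ccng1 differed by -0.17 ± 0.29 and -0.18 ± 0.29, and Trp53inp1 by 0.02 ± 0.29 and -0.04 ± 0.29. The positive values of these 3 genes thus came from pool A2, and the lone B2 arrays are assumed there to vary like the other groups. Gadd45g then differed by -0.68 ± 0.37 untreated and by -1.28 ± 0.37 with OHT (limma adjusted p = 0.915 for the second), so that its sign depended on which pool stood for the labelled knockout.

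Pool A2 had both arrays above the other 6 for 5 of the 10 members (Mdm2, Ccng1, Aen, Trp53inp1 and Gadd45g), against 13.6% of all genes. The count was 5 as well after normexp background correction, quantile normalisation, median centring or averaging of probes. Relative to the mean of the other arrays, A2 was higher by 1.49 for Gadd45g, 1.24 for Ccng1, 1.06 for Trp53inp1, 1.03 for Mdm2 and 0.37 for Aen. Gadd45b, at 0.71, and Ei24, at 0.13, overlapped the other arrays, as did Sesn2 (0.01), Gadd45a (-0.08) and Sesn1 (-0.15). The median over the members was 0.54 in A2, against -0.06 over all genes. In the other pools 1 member stood above (Sesn2 in A1, against 3.19% of all genes), 0 did in B1 (6.55%) and 0 in B2 (6.2%), and 1 stood below (Gadd45g in B2, against 3.36%). No member stood below in A1 (7.21%) or in B1 (7.48%). The pool was singled out after its values were seen, so these counts are a description with no test.

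**Figure D3:**
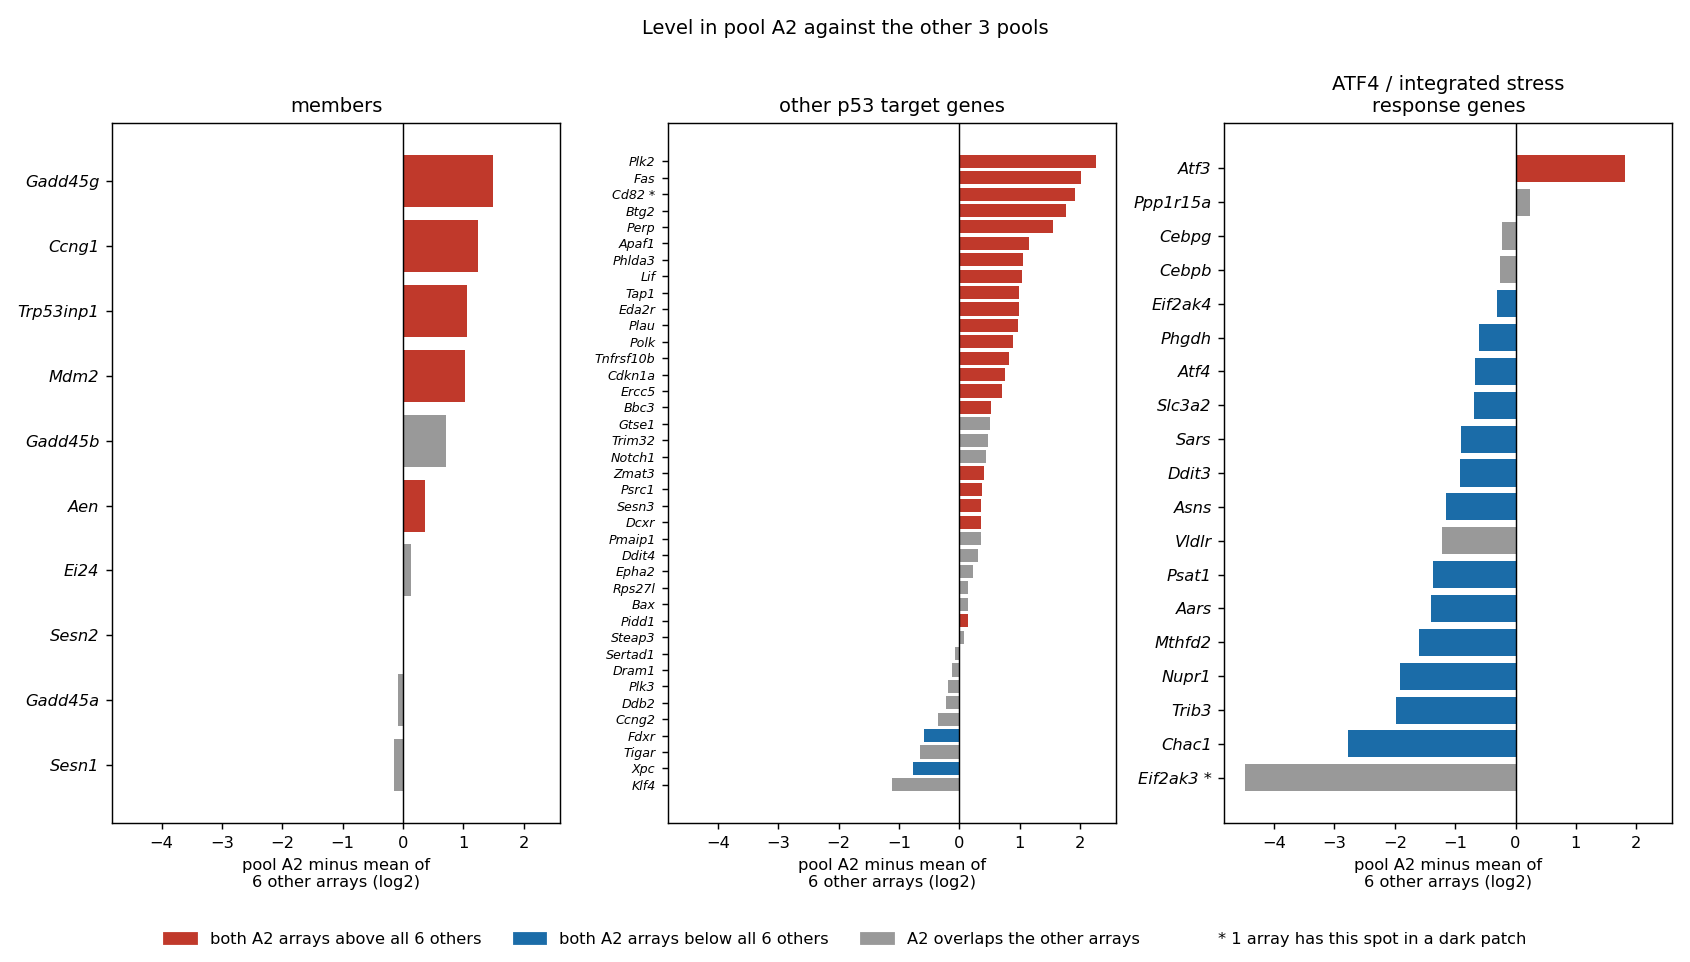
Mean of the A2 arrays minus the mean of the other 6 arrays (x axis, log2) for the members, other p53 target genes and ATF4 or integrated stress response genes (y axis). Red bars mark genes with both A2 arrays above all others, blue bars both below, and an asterisk marks a gene with 1 array in a dark patch of the chip. Red bars make up 5 of 10 members and 21 of 39 other p53 targets, and blue bars 13 of 19 stress response genes.

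Of 40 other genes that p53 is known to activate, 39 were measured, and 21 had both A2 arrays above the other 6 while 2 had both below (13.6 and 18.0% of all genes), and the rest overlapped the other arrays. One of the 21, Cd82, had its untreated A1 spot in a dark patch. The median difference over the list was 0.41, and this too is a description of a pool singled out afterwards. The cell cycle inhibitor Cdkn1a read 3.53 (A2) and 2.61 (B2) in the labelled knockout with OHT and 2.94 and 2.37 untreated, against 2.63 (A1) and 2.74 (B1) in the wild type with OHT and 2.08 and 2.46 untreated. Named after their values were seen, the death receptor gene Fas was higher in A2 by 2.01, the anti-proliferative gene Btg2 by 1.76, and Perp, a desmosomal p53 target, by 1.56. In contrast, the 2 genes below the others in A2, Fdxr (-0.59) and Xpc (-0.77), were likewise named after their values were seen. The p53 gene itself did not stand apart: Trp53 read 1.47 (A2) and 1.49 (B2) in the labelled knockout with OHT and 1.59 and 1.44 untreated, against 1.69 (A1) and 1.34 (B1) in the wild type with OHT and 1.56 and 1.52 untreated. For Trp53, 1 of these arrays had a spot in a dark patch. Of 20 measured regulators of p53, 2 lay above and 2 below in A2 (13.6 and 18.0% of all genes).

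The transcription factor ATF4 drives the integrated stress response, in which amino acid shortage or misfolded protein slows translation, and it activates Sesn2 and, in several settings, Gadd45 genes. Of 20 such genes 19 were measured, and 13 had both A2 arrays below the other 6 and 1, Atf3, had both above (18.0 and 13.6% of all genes), with a median of -0.93. Atf3 and Atf4 are named after their values were seen. Atf4 itself read 7.73 and 7.44 in A2 (OHT, untreated) and 7.97 to 8.61 on the other arrays. Chac1, a glutathione-degrading enzyme named here after its values were seen, read 1.82 and 1.38 in A2, against 3.68 to 5.20 on the others. Of 12 measured genes for proteins that bind or act with Gadd45, 6 lay below and 1 above in A2 (18.0 and 13.6% of all genes). The 1 above was Cdkn1a, which is also among the other p53 targets. Of 20 measured genes for partners of the sestrins in mTORC1 control, 6 lay below and 2 above (again 18.0 and 13.6% of all genes).

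**Figure D4:**
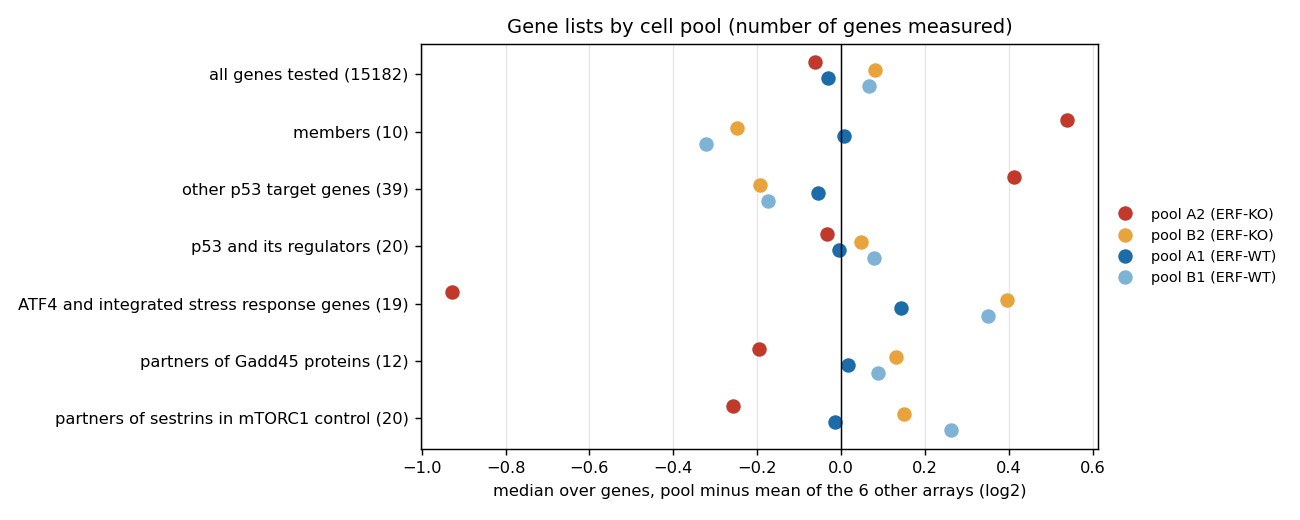
Median over the genes of a list (y axis, with the number of genes measured) of the difference between a cell pool and the mean of the 6 arrays of the other pools (x axis, log2). In pool A2 the members lie at 0.54 and the other p53 targets at 0.41, the ATF4 list lies at -0.93, and all genes tested lie at -0.06.

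Of the marker lists of cell identity, the ES cell and neural progenitor lists had summed levels on both A2 arrays outside those of the other arrays. The trophoblast list did not by its sum, but most of its measured genes stood above the other arrays in A2. The summed level of the 8 ES cell markers, in multiples of the 75th percentile, was 194 and 186 in pool A2 (OHT, untreated) and 316 to 527 on the other 6 arrays. Pou5f1, the core pluripotency factor, read 4.01 and 3.88 in A2, against 4.96 to 5.68, whereas Lin28a was higher in A2 by 0.32 and overlapped the other arrays (both named after their values were seen). The Zfp42 spot of the A2 array with OHT lay in a dark patch. Of 6 trophoblast markers 5 were measured, and 3 (OHT) and 4 (untreated) exceeded the 75th percentile in A2, against 1 or 2 on the other arrays. The count of 3 includes Cdx2, which lay almost exactly at that percentile. Cdx2, Eomes, Krt7 and Hand1 each had both A2 arrays above the other 6, whereas Tfap2c overlapped them (all named after their values were seen). The summed level was 16.3 and 14.01, against 9.93 to 25.6, within the range of the others, but it came mostly from Tfap2c. The 4 neural progenitor markers summed to 9.97 and 9.92 in A2 and to 2.48 to 5.25 elsewhere, mostly through Nes (also named after its values were seen), and just 1 of them exceeded the 75th percentile on any array. Fibroblast markers, which feeder cells would bring, summed to 40.2 and 34.9 in A2 and to 21.9 to 42.5 elsewhere, with 3 of 7 measured above the 75th percentile on each array. The sum of 40.2 (OHT) holds a Col1a1 value of -2.27, against 3.78 in untreated A2 and 2.73 to 3.57 elsewhere. Col1a1 had 1 array in a dark patch, so whether A2 with OHT lay within the range of the others cannot be told from that sum. The 6 primitive endoderm markers summed to 0.959 and 1.24 in A2 and 1.18 to 2.73 elsewhere. The 0.959 (OHT) holds a Dab2 value of -6.97, against -1.21 in untreated A2 and -1.96 to -0.90 elsewhere, and Dab2 too had 1 array in a dark patch. Of 4 mesoderm markers 2 were measured, with sums of 5.60 and 5.48 in A2 and 3.87 to 7.09 elsewhere. Erf was also lowest in A2, at -1.55 relative to the mean of the other arrays, and A2 shared slide 1 with pools A1 and B2. The part of cell state, Erf level or clone in the A2 levels was not tested.

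Under OHT, limma on the group means called 0 genes in each of the 5 lists for the mean of both genotypes, against 0.0659% of all genes. The blocked fit with trended, robust variance called 7 higher and 2 lower of 38 other p53 targets, 1 and 1 of 18 p53 regulators, 0 and 5 of 18 ATF4 and stress response genes, 1 and 1 of 10 Gadd45 partners and 2 and 2 of 18 sestrin partners, against 28.7% of all genes. Summed over both directions, these shares are near or below the background. By direction, that fit called 12.9% of all genes higher and 15.7% lower. All calls in the ATF4 list were lower (27.8% of its genes), and most calls among the other p53 targets were higher, without a test of either difference. Cdkn1a, which arrests the cycle, was higher with OHT in 4 of 4 pools, by 0.42 ± 0.26 (SE; limma adjusted p = 0.743, and 0.00847 in that blocked fit). The p53 targets with the smallest p were Epha2, a receptor tyrosine kinase (-0.56 ± 0.15, limma adjusted p = 0.333), the stress kinase Plk3 (-0.43 ± 0.13, limma adjusted p = 0.396) and the iron reductase Steap3 (-0.29 ± 0.15, limma adjusted p = 0.665). Trp53 differed by -0.03 ± 0.13 (limma adjusted p = 0.969). Its inhibitor Mdm4 differed by 0.35, its binding protein Trp53bp1 by -0.33 and the ubiquitin ligase Cop1 by -0.16.

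In the other lists, the serine synthesis gene Phgdh (-0.43), the factor Cebpb (-0.40) and the amino acid transporter subunit Slc3a2 (-0.37) came first among ATF4 and stress response genes. Among Gadd45 partners, besides Cdkn1a, these were the p38 activator Map2k6 (0.41) and the glycosylase Tdg, whose -1.30 includes a spot in a dark patch. Among sestrin partners they were the AMPK subunit Prkaa2 (0.36) and the Rag GTPases Rragc (0.26) and Rragb (-0.55). All were mean differences with OHT over both genotypes, and none passed in limma on the group means.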

How the data were processed

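RNA of 8 samples was labelled with Cy3 and hybridised to 1 one-colour array each, per the labels. Values are spot intensity readings as deposited, and the file headers name Agilent Feature Extraction 11.5.1.1 as their source: the processed signal, and the spot and local background intensity that entered normexp (offset 50). The deposited 0 or 1 flags mark each spot that was clearly above background, saturated or an outlier. The series value table was not used. The authors' own normalisation is not given in these sources.

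Spots of a probe were averaged over the spots that carried no outlier flag. The log2 signal minus each array's 75th percentile over 55681 distinct probes was used. Accessions were named through RefSeq (GRCm38.p6, names only): 28026 probes matched and 27655 did not. Probes entered when some group had both of its arrays well above background, and the probe with the highest mean stood for its gene. All 12 member probes passed, well above background on all 8 arrays. Dark patches are areas where the median over 7 by 7 spots of the log2 deviation from each spot's median over arrays lay below -0.5.

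The tests used limma (version 3.58.1, R 4.3.3, lmFit and eBayes), two-sided. The fit on the group means left 4 residual degrees of freedom, and the fits with a block or with arrays left out left fewer. P-values were adjusted by Benjamini-Hochberg within each of 6 comparisons with a threshold of 0.05, and the code was tested on simulated data. Source names tie the arrays of a pool. Their deviations from the group means correlated at 0.436 in the labelled knockout and 0.645 in the wild type over 15182 genes, and genes are not independent replicates. The wild type pools lay on different slides, so the value of 0.645 also holds any slide difference. Members and lists were chosen with earlier results of these data known. Named besides the members are Trp53, Cdkn1a and, from each of 5 lists, up to 3 genes with the smallest p in the mean OHT comparison; Erf is named for the label check, and any other gene was chosen after its values were seen. Tables and figures used Python 3.11.15, pandas 2.3.3 and matplotlib 3.10.9. Alternatives covered background correction, scaling, probe filter, probe choice, variance, dark patches, slide, pairing and left-out arrays.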

Additional observations from a re-analysis of the deposited data

Results flagged for a closer look

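Ei24 moved one way after OHT in both labelled knockout pools (0.15 in A2 and 0.57 in B2) and the other way in both wild type pools (-0.06 in A1 and -0.25 in B1), a pattern shared by 7.41% of all genes. The change in the labelled knockout minus that in the wild type was 0.52 ± 0.28 (SE, 2 pools each; limma adjusted p = 1.00), so the difference did not pass a test.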

How the results depend on the processing

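Of 1440 member values under the alternatives, 1402 stayed on their side of the threshold and 38 newly passed it. No member had passed on the group means, so none could be lost. Among values that passed in neither fit, 111 had another sign than the main value. On the group means 0 members passed with any array left out, under any background correction, scaling, filter or probe choice run, or with slide as a block. With the replicate block (pools as blocks) alone, 1 member passed in the mean OHT comparison and 0 in the others. With the replicate block, trended robust variance and dark patches left out, 3 members passed in the wild type, 2 in the labelled knockout and 3 in their mean. Chosen after seeing the data, leaving out a pool in that fit gave, in that order, 2, 1 and 3 without A1, 4, 1 and 4 without A2, 1, 1 and 2 without B1, and 4, 2 and 4 without B2, and 0 for the difference of effects each time. Gadd45a passed, lower, in the wild type without A2 or B2. Fewer pools leave fewer residual degrees of freedom, and the cause of these shifts was not tested. The genotype comparisons called 0 members under every alternative, including those with a pool left out. In pool A2, other p53 targets above all other arrays numbered 17 to 24 over the scalings and probe choices, and ATF4 and stress response genes below them 12 to 13. All member probes were well above background on all 8 arrays, and 2 arrays a group limit the precision.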
